A study of Sus scrofa with 12 samples.

Results

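PPP1R1A and ARPP21 encode phosphoproteins that the cAMP-dependent kinase PKA modifies, and they are 2 of the 31903 genes in the FPKM table of this study. They were chosen on measured values, because both were far higher in muscle than in fat and both were lower in back fat of high backfat pigs. The contrast of muscle with fat and the contrast of HBF with LBF are therefore described for these 2 genes without a test, and the contrast of HIMF with LIMF, which the choice did not use, is tested. PPP1R1A (ENSSSCG00000000298) lies at chr5:19753850-19763281 and ARPP21 (ENSSSCG00000011238) at chr13:20955414-21088424 in the RefSeq annotation of Sscrofa11.1.

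The study sequenced RNA of sows of the Dingyuan breed, a native Chinese pig, with 3 libraries in each of 4 groups. Back subcutaneous fat came from pigs with low (LBF) or high (HBF) backfat thickness, and longissimus dorsi (LD) muscle from pigs with low (LIMF) or high (HIMF) intramuscular fat. All animals were labelled as 300 days old, and the groups carried no transgene or drug. By the study's methods, the libraries of a group came from different pigs, and fat and muscle were collected from the same set of slaughtered sows. The labels do not say whether a given fat library and muscle library came from the same pig.

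PPP1R1A is protein phosphatase inhibitor 1, a small protein that blocks protein phosphatase 1 (PP1) once PKA has phosphorylated it. In muscle it is known to amplify the action of PKA on the enzymes of glycogen breakdown. ARPP21 was found as a striatal PKA substrate whose short form binds calmodulin when phosphorylated, and its long form carries an R3H domain and binds RNA. Gene-level FPKM does not separate these forms.

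FPKM scales the fragments of a gene to its transcript length and to the size of the library, so levels can be set side by side between genes. The total FPKM per library ranged from 420982 to 517796, and the reads behind a single value are unknown. Tissue markers matched the labels in sign, with the sum of 8 adipocyte genes at 8184 to 13670 FPKM in fat and 170 to 421 in muscle. Of the 11 skeletal muscle markers with a row, ACTA1 was listed at 0 in 4 of the 6 muscle libraries and CKM in 2, so neither was used as a measure of muscle RNA. LBF replicate 3 stood apart, with the other 9 markers summing to 167 FPKM against 3.68 to 13.2 in the other 5 fat libraries.

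PPP1R1A was among the more abundant transcripts of LD muscle. The LIMF libraries stood at 296, 289 and 244 FPKM, the HIMF libraries at 430, 321 and 261. In the ranking of all genes it stood between place 110 and place 211 in these 6 libraries. In the fat, LBF libraries stood at 20.1, 20.0 and 15.9 FPKM and HBF libraries at 6.45, 4.54 and 6.14. Every HBF library was below every LBF library, and every fat library was far below every muscle library. Among all genes tested, 6.46% had every HBF library below every LBF library and 10.4% had every muscle library above every fat library. Nothing is read from the members' place in these counts, since they were chosen on both contrasts.

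The group means of PPP1R1A rose in the order HBF, LBF, LIMF and HIMF. They were 5.71 ± 1.03, 18.6 ± 2.40, 277 ± 28.6 and 337 ± 85.8 FPKM (SD, n = 3 each). The muscle groups overlapped, and the other neighbours in this order did not. The mean of the 6 muscle libraries was 25.2 times that of the 6 fat libraries, and the difference on the log2(FPKM + 0.1) scale was 4.87 (standard error 0.15). It was 5.32 after quantile normalization and 5.90 after median-of-ratios scaling.

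ARPP21 was a gene of moderate level in muscle and of very low level in fat. The LIMF libraries stood at 3.89, 2.78 and 24.8 FPKM, the HIMF libraries at 11.3, 12.6 and 8.27. In the fat, LBF libraries stood at 0.268, 0.312 and 0.363 FPKM and HBF libraries at 0.0504, 0.0146 and 0.0973. The fat groups did not overlap here either, but LIMF spanned the whole range of HIMF, with replicates 1 and 2 below and replicate 3 above.

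The group means of ARPP21 were 0.054 ± 0.041 FPKM in HBF, 0.314 ± 0.048 in LBF, 10.5 ± 12.4 in LIMF and 10.7 ± 2.21 in HIMF (SD, n = 3 each). The mean level in muscle was 57.6 times that in fat, with a log2(FPKM + 0.1) difference of 5.07 (standard error 0.44). After either scaling this difference was 5.84. With 1 or 0.01 added before the logarithm in place of 0.1, it was 3.02 or 5.97. The ratio of the FPKM of PPP1R1A to that of ARPP21 differed widely between libraries, from 9.83 in LIMF replicate 3 to 311 in HBF replicate 2.

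**Figure D1:**
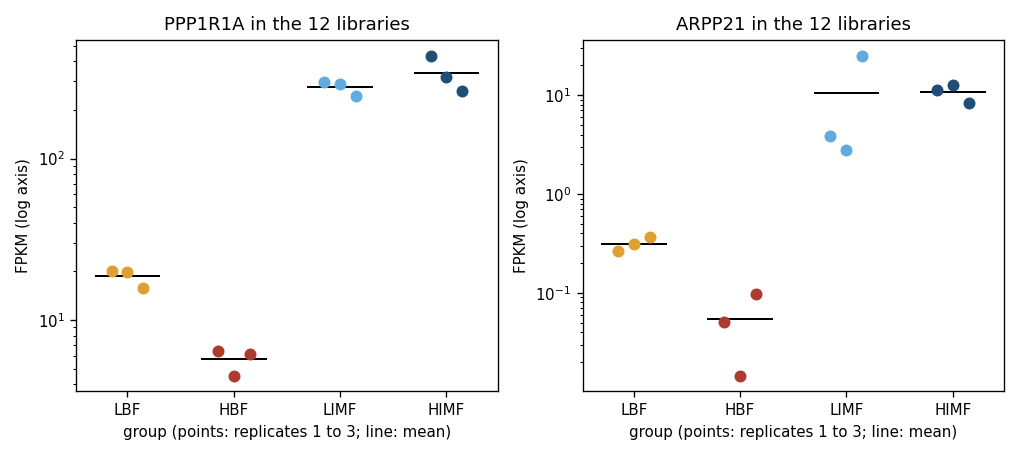
FPKM of PPP1R1A (left) and ARPP21 (right) on log axes in LBF, HBF, LIMF and HIMF, with points for the 3 libraries of a group and a line at their mean. HBF lies below LBF for both genes, and LIMF replicate 3 at 24.8 FPKM stands above the other muscle libraries for ARPP21.

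Between HBF and LBF the log2(FPKM + 0.1) difference of PPP1R1A was -1.70 (standard error 0.18), and the mean FPKM in LBF was 3.27 times that in HBF. For ARPP21 the difference was -1.46 (standard error 0.32), and the ratio of mean FPKM was 5.81. The ARPP21 levels in fat are close to the 0.1 added before the logarithm, which makes its log2 difference smaller than its ratio. With 1 or 0.01 added instead, the ARPP21 difference was -0.32 or -2.57. By log2 difference, PPP1R1A was 107th and ARPP21 175th from the lowest of 16239 genes tested in fat. These places follow from the choice of the genes, so nothing is read from them. A call needed an adjusted p below 0.01 with a log2 difference of 1 or more in either direction. By this rule limma called 0 of the 16239 genes, or 0%, and 2206 had an unadjusted p under 0.05. At the same limits the study's DESeq2 test did report genes that differ between HBF and LBF. The 0 calls here therefore do not show that no gene differs.

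Both genes were far higher in muscle than in fat. Muscle RNA in each fat library was therefore read from 9 markers that were detected in all 6 muscle libraries. In LBF replicate 3 these markers were at a median of 0.555% of their mean muscle FPKM, with a range from 0.397% to 1.11%. In the other 5 fat libraries the median was between 0.0044% and 0.013%. On the same scale PPP1R1A was at 6.55%, 6.50% and 5.17% in LBF and at 2.10%, 1.48% and 2.002% in HBF. ARPP21 was at 2.53%, 2.94% and 3.42% in LBF and at 0.475%, 0.138% and 0.917% in HBF. Both genes were above the highest of the 9 markers in each fat library.

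At the median marker percent, PPP1R1A would be at 1.70 FPKM in LBF replicate 3 and at 0.014 to 0.041 FPKM in the other fat libraries. At the percent of the highest marker it would be at 3.41 FPKM in LBF replicate 3, where 15.9 FPKM was measured. For ARPP21 the highest marker gives 0.118 FPKM in that library, against the measured 0.363. Leaving out LBF replicate 3 gave a log2 difference between HBF and LBF of -1.81 for PPP1R1A and -1.37 for ARPP21. The part of muscle RNA in the level of either gene in fat was not tested.

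**Figure D2:**
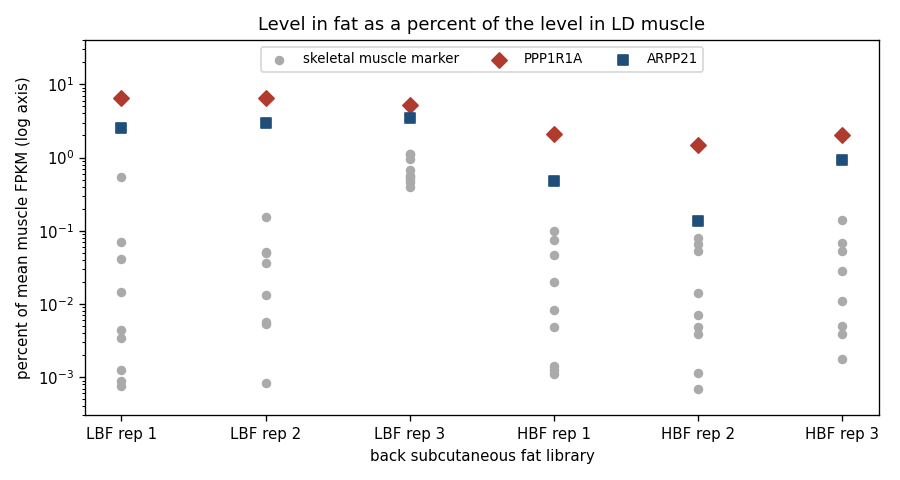
Level in each of the 6 back fat libraries as a percent of the mean FPKM in LD muscle, on a log axis, for PPP1R1A (diamonds), ARPP21 (squares) and 9 skeletal muscle markers (grey points, with markers listed at 0 left out). The markers rise to between 0.397% and 1.11% in LBF replicate 3, and both genes lie above them in every library.

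Other cell types of the fat were followed by their markers. The 4 smooth muscle genes summed to 97.4 to 123 FPKM in LBF and to 156 to 298 in HBF, without overlap. TAGLN carried this sum, at 83.4 FPKM on average in LBF and 213 in HBF (adjusted p = 0.222 from limma), while ACTG2, MYH11 and CNN1 overlapped and had lower means in HBF. The 5 macrophage genes summed to 41.3 to 113 FPKM in LBF and 98.4 to 109 in HBF. Among them CD68, CSF1R and MARCO had higher means in HBF at an unadjusted p under 0.05 (adjusted p = 0.325, 0.337 and 0.285 from limma), and CD163 had a lower mean. The 5 fibroblast genes summed to 2035 to 6235 FPKM in LBF and 1395 to 3216 in HBF. The 4 endothelial genes summed to 152 to 314 FPKM in LBF and 265 to 413 in HBF, and the 4 Schwann cell genes to 47.6 to 79.2 and 57.4 to 93.2. The sum of the adipocyte genes overlapped between the groups, at 8184 to 10700 and 8434 to 13670 FPKM. Of its members, LEP averaged 62.0 FPKM in LBF and 109.8 in HBF and LPL 981 and 515, each without overlap (adjusted p = 0.325 and 0.251 from limma). Over all genes 13.9% were higher and 6.46% lower in HBF without overlap. The study's own table gives LPL as higher in HBF, the opposite direction. The part of these cell types in the difference of the 2 genes was not tested. In bulk tissue fewer cells of a type and less RNA per cell cannot be told apart.

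ARPP21 is also known from neurons and thymocytes, whose markers had low listed values, as was ARPP21 itself in fat. The 6 neuron genes summed to 0.127 to 0.757 FPKM in LBF and 0.554 to 0.798 in HBF, and the groups overlapped. These sums exceeded ARPP21 in the HBF libraries and in LBF replicate 1, and their part in its level was not tested. The 5 T cell and thymocyte genes summed to 0.851 to 2.13 FPKM in LBF and 1.11 to 3.52 in HBF. This sum exceeded ARPP21 in every fat library, and the part of these cells was not tested either. Among these genes, RAG1 and PTCRA, which define immature T cells, were listed at 0 in 9 and 10 of the 12 libraries. They were at no more than 0.0641 FPKM in the rest. A listed 0 can be a failed estimate, since ACTA1 and CKM, which skeletal muscle uses in large amounts, were also listed at 0 in some muscle libraries, so these zeros do not show that the transcripts were absent. In muscle the neuron genes summed to 0.00495 to 0.198 FPKM.

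In LD muscle the difference between HIMF and LIMF was within the spread between libraries for both genes. For PPP1R1A, HIMF minus LIMF was 0.26 on the log2(FPKM + 0.1) scale (standard error 0.26, 95% interval -0.35 to 0.87, adjusted p = 0.869 from limma). For ARPP21 it was 0.69 (standard error 0.72, interval -0.98 to 2.37, adjusted p = 0.873 from limma), while its mean FPKM in HIMF was 1.02 times that in LIMF. The exact permutation test, two-sided, gave p = 0.4 and p = 0.5, where 3 libraries against 3 cannot go below 0.1. The groups overlapped for both genes, against 12.7% of the 14292 genes tested in muscle whose libraries did not overlap. In this tissue limma called 0 genes, or 0%, by the same rule, with 1004 at an unadjusted p under 0.05. The study's DESeq2 test reported genes that differ at these limits in muscle as well.

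The ARPP21 comparison rested on LIMF replicate 3. Without that library the difference was 1.65 (standard error 0.27, adjusted p = 0.0796 from limma), still outside the limit, and without LIMF replicate 2 the difference was 0.10. For PPP1R1A the difference was 0.07 without HIMF replicate 1, which had the highest level, and 0.43 without HIMF replicate 3.

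LIMF replicate 3 also had the highest level of slow-fibre genes. The 6 slow-fibre genes with a row, such as MYL2 and TNNI1, summed to 9343, 4327 and 21290 FPKM in LIMF and to 5346, 2801 and 7803 in HIMF. MYL2 alone was at 10041 FPKM in LIMF replicate 3 and at 1002 to 5242 in the other 5. Among those 5 libraries ARPP21 did not follow this order, since it was 12.6 FPKM at the lowest slow-fibre sum and 3.89 FPKM at the highest. Within LIMF, however, ARPP21 was in the order of the slow-fibre sum, and within HIMF it was in the reverse order. The 5 fast-fibre genes were lowest in the same library, at 9933 FPKM against 11440 to 17290. The part of fibre type in the ARPP21 level was not tested.

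**Figure D3:**
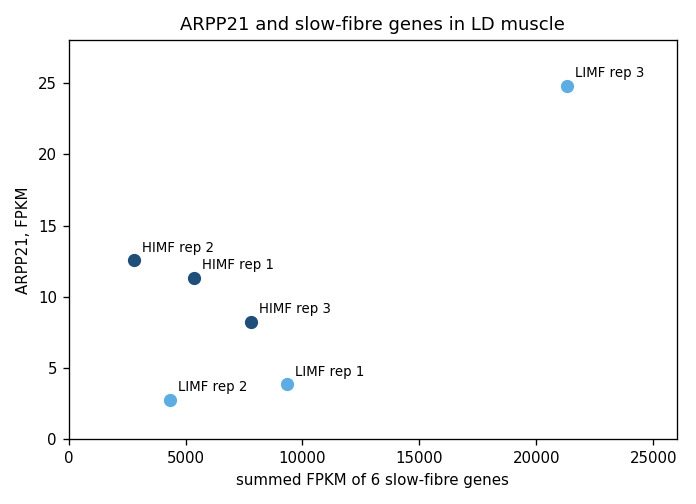
ARPP21 in FPKM against the summed FPKM of 6 slow-fibre genes in the 3 LIMF (light) and 3 HIMF (dark) libraries of LD muscle. LIMF replicate 3 is highest on both axes, at 24.8 and 21290 FPKM. ARPP21 rises with the slow-fibre sum within LIMF and falls with it within HIMF.

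The nearest relative of PPP1R1A was distributed the other way. PPP1R1B, or DARPP-32, is the PKA-controlled PP1 inhibitor best known from striatal neurons. The LBF libraries held 98.0, 172 and 215 FPKM of it and the HBF libraries 154, 224 and 125, against 0.133 to 2.28 in the 6 muscle libraries. It was lower in muscle by a log2 difference of -7.22 (standard error 0.49, adjusted p = 7.4e-08 from limma), where 56.4% of the 15965 genes tested were called in either direction.

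PPP1R1B did not share the difference between the fat groups. It overlapped between HBF and LBF, with a log2 difference of 0.08 (standard error 0.33, 95% interval -0.71 to 0.87, adjusted p = 0.938 from limma). As a share of the summed FPKM of both inhibitors, PPP1R1A made up 17.0%, 10.4% and 6.87% in LBF, 4.02%, 1.99% and 4.68% in HBF and between 99.4% and 99.9% in muscle. The sum of both was 118 to 231 FPKM in LBF, 131 to 228 in HBF and 244 to 432 in muscle. By the deposited FPKM, the sum of both inhibitors was of a similar order in the tissues, carried by a different gene in each. Other PP1 inhibitors are not in this sum. Median-of-ratios scaling moved muscle minus fat of PPP1R1A from 4.87 to 5.90, and the sum was not computed after scaling.

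**Figure D4:**
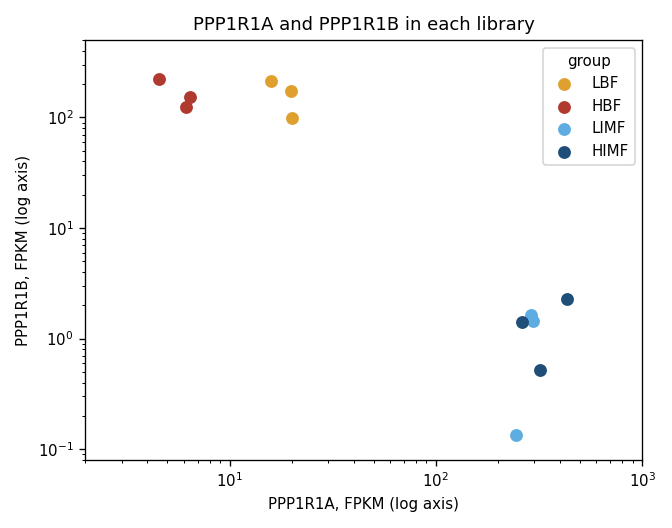
FPKM of PPP1R1B against FPKM of PPP1R1A on log axes, with a point for each of the 12 libraries coloured by group. The fat libraries lie at 98.0 to 224 FPKM of PPP1R1B and below 20.2 FPKM of PPP1R1A, and the muscle libraries at 0.133 to 2.28 and 244 to 430 FPKM.

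The relatives of ARPP21 with an R3H domain differed far less between the tissues. R3HDM1 was at 5.95 to 8.28 FPKM in fat and 8.10 to 11.8 in muscle, and R3HDM2 at 19.3 to 22.1 and 21.1 to 35.8. The log2 differences between muscle and fat were 0.54 (standard error 0.12) and 0.21 (standard error 0.13), and neither passed the limits with the FPKM as deposited. With median-of-ratios scaling they were 1.57 and 1.25, and both passed, and after quantile normalization R3HDM1 passed at 1.31. Of the summed FPKM of the 3 genes, ARPP21 made up 0.052% to 1.36% in fat and 5.52% to 44.9% in muscle, with the highest share in LIMF replicate 3. Between HBF and LBF the log2 difference was -0.11 for R3HDM1 (adjusted p = 0.789) and -0.04 for R3HDM2 (adjusted p = 0.916, limma for both).

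ENSA, which inhibits the phosphatase PP2A and is related to another cAMP-regulated phosphoprotein, ARPP19, was called higher in muscle by 1.36 (standard error 0.29, adjusted p = 0.001 from limma). The LIMF libraries held 80.5, 111 and 78.7 FPKM and the HIMF libraries 74.4, 47.0 and 47.6, without overlap. The difference of -0.69 had an adjusted p of 0.650 in limma. No row could be matched to ARPP19 or PPP1R1C by symbol.

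In the genome, ARPP21 and R3HDM1 each hold a gene for the microRNA miR-128. MIR128-2 lies at chr13:21038445-21038524 inside ARPP21, and MIR128-1 at chr15:16273557-16273638 inside R3HDM1. No value of either microRNA was used here. PDE1B, a calmodulin-dependent phosphodiesterase, lies 957 bases from PPP1R1A (chr5:19725346-19752892) and was named for its position after its values could be seen. PDE1B had the opposite tissue pattern, at 1.63 to 6.54 FPKM in fat and 0.168 to 0.824 in muscle, a log2 difference of -2.93 (standard error 0.34, adjusted p = 6.6e-06 from limma).

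The route from hormone to PKA and PP1 was followed with 93 further genes in 14 groups by role, of which 83 had a row. Between muscle and fat 80 were tested and 60 were called by limma, 32 higher and 28 lower in muscle. Over all genes 1483 (9.29%) were higher and 7526 (47.1%) lower, and the median log2 difference was -0.97, so a gene at 0 stands above most others. With median-of-ratios scaling that median was -0.16, and the split was 40 higher and 20 lower for the pathway and 3407 and 4214 for all genes. After quantile normalization it was 38 and 20 for the pathway and 3194 and 3581 for all genes. In 7 of the 14 roles some genes were called higher in muscle and others lower.

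At the receptor, ADRB1, the beta-1 adrenergic receptor, was at 4.30 to 10.5 FPKM in fat and at most 0.0604 in muscle. ADRB3 was at 0.171 FPKM or less in every library. The inhibitory G protein subunits GNAI1, GNAI2 and GNAI3 were called lower in muscle, with log2 differences of -4.87, -2.83 and -3.90. All 4 called genes of this group were lower in muscle, the direction of 47.1% of all genes, against 9.29% called higher.

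All 8 adenylyl cyclases tested, the enzymes that make cAMP, were called, 3 higher and 5 lower in muscle, where 9.29% of all genes were called higher and 47.1% lower. ADCY2 was at 20.1 to 38.4 FPKM in muscle and 0.443 to 1.43 in fat. ADCY5 was at 13.1 to 28.9 FPKM in fat and 0.280 to 0.618 in muscle, and ADCY4 was also lower in muscle, by -3.18 on the log2 scale. The leading cyclase thus differed between the tissues.

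Of the 10 phosphodiesterases tested, which degrade cAMP, 5 were called higher and 4 lower in muscle, beside the same 9.29% and 47.1% of all genes. PDE4A, PDE4C and PDE4D were higher in muscle, by 1.68, 6.21 and 4.21 on the log2 scale. PDE4C was at 9.20 to 60.4 FPKM in muscle and 0.134 to 0.481 in fat. On the fat side, PDE8B and PDE3B, the insulin-controlled form of adipocytes, differed by -5.11 and -4.56.

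Subunits of PKA were present in both tissues. The catalytic subunit PRKACA was at 17.7 to 21.6 FPKM in fat and 41.4 to 67.4 in muscle and was called higher in muscle by 1.39. PRKAR2B was at 65.1 to 117 FPKM in fat and 0.758 to 2.08 in muscle, a log2 difference of -6.30, and PRKAR2A was at 5.02 to 9.53 in fat and 41.9 to 68.2 in muscle, a difference of 3.03. PRKAR1A, at mean levels of 93.6 FPKM in fat and 50.8 in muscle, had a difference of -0.87 that did not pass the limits and was 0.17 with median-of-ratios scaling. The PKA inhibitor PKIA was at 120 to 198 FPKM in muscle and 5.53 to 11.5 in fat, whereas PKIG and PKIB were lower in muscle, by -2.63 and -2.45.

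Of the 9 anchoring proteins that place PKA in the cell, 2 were called higher and 4 lower in muscle, a share of lower calls near the 47.1% of all genes. AKAP1, an anchor at mitochondria, was higher in muscle by 1.73, and AKAP12 was lower, by -3.93. AKAP8 had a difference of -0.52, which did not pass and was 0.25 after quantile normalization and 0.52 after median-of-ratios scaling.

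**Figure D5:**
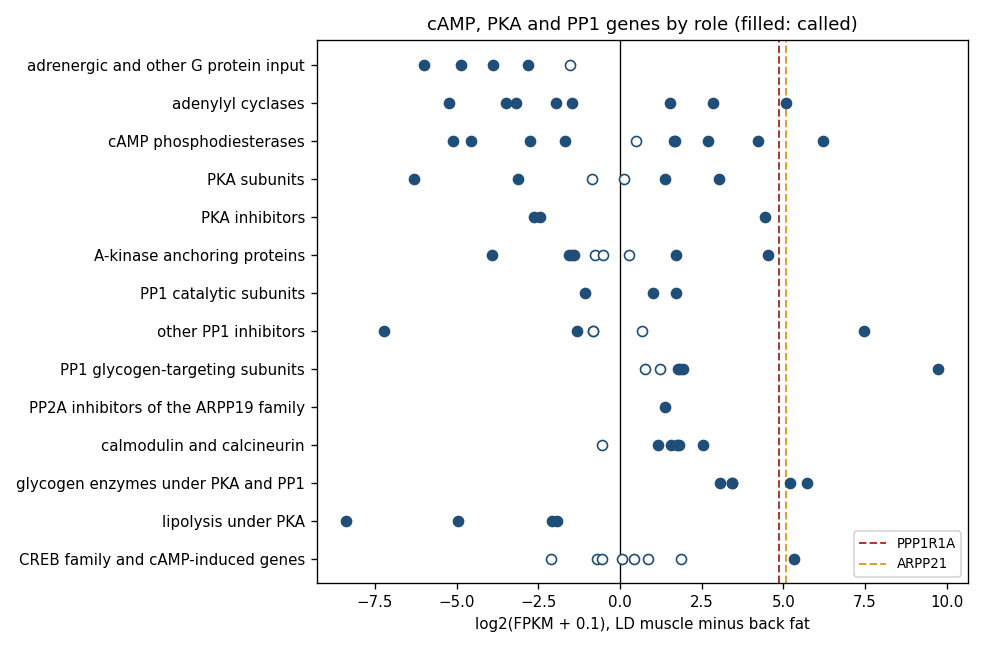
Difference in log2(FPKM + 0.1) between LD muscle and back fat for the 80 tested genes of the cAMP, PKA and PP1 route, in rows by role, with filled points for genes called by limma and dashed lines at PPP1R1A (4.87) and ARPP21 (5.07). In 7 of the 14 roles called genes lie on both sides of 0, while glycogen enzymes lie on the muscle side and lipolysis genes on the fat side.

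Downstream of inhibitor 1 stand the catalytic subunits of PP1. PPP1CB and PPP1CC were called higher in muscle, by 1.71 and 1.01, and PPP1CA lower, by -1.07. The PPP1CA call was lost after quantile normalization (-0.80) or median-of-ratios scaling (-0.03). PPP1CC lay close to the limit of 1, and its call was lost with a pseudocount of 1 and without any 1 of 5 libraries (0.872 to 0.998). Set against the summed FPKM of these 3 subunits, PPP1R1A stood at 0.075 to 0.103 in LBF, 0.019 to 0.030 in HBF and 0.452 to 1.06 in muscle.

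Of the 6 other PP1 inhibitors tested, PPP1R1B among them, 1 was called higher and 2 lower in muscle, where all genes gave 9.29% and 47.1%. PPP1R14B had a difference of 0.68 that did not pass with the FPKM as deposited and passed with median-of-ratios scaling at 1.72. PPP1R11 had a difference of -0.81 that did not pass, and it was 0.23 with that scaling. The subunits that bring PP1 to glycogen were on the muscle side, with 4 of 6 called higher, beside 9.29% of all genes, and 0 lower. PPP1R3A, the muscle form, was at 58.0 to 145 FPKM in muscle and at most 0.379 FPKM in fat, in LBF replicate 3. PPP1R3C was higher in muscle by 1.92, and PPP1R3B had a difference of 1.22 that did not pass. PPP1R3B passed at 2.11 after quantile normalization, at 2.25 after median-of-ratios scaling and at 1.76 without LIMF replicate 2.

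The enzymes that PKA and PP1 switch in glycogen metabolism were all 5 called higher in muscle, as were 9.29% of all genes. PYGM, muscle glycogen phosphorylase, was at 1887 to 3636 FPKM in muscle and 44.2 to 63.5 in fat. The phosphorylase kinase subunits PHKA1 and PHKB were higher by 5.20 and 3.42 on the log2 scale. The 4 genes of PKA-driven lipolysis were all called lower in muscle, as were 47.1% of all genes. LIPE, hormone-sensitive lipase, differed by -4.95, PLIN1, which coats lipid droplets, by -8.38, and PNPLA2, the first lipase of triglyceride breakdown, by -2.08.

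Calmodulin is the partner of the short ARPP21 form. Its gene CALM3 was called higher in muscle, by 1.81. CALM2 had a difference of -0.56 that did not pass and was 0.49 with median-of-ratios scaling. Of the 8 CREB family and cAMP-induced genes, 1 was called, PPARGC1A, a coactivator of mitochondrial genes, at 2.98 to 32.0 FPKM in muscle and at most 0.304 in fat. Of all genes 56.4% were called, made up of 9.29% higher and 47.1% lower in muscle. FOS, NR4A1 and SIK1 were not called, and their log2 differences were -2.11, 0.42 and 0.05. FOS passed at -2.80 without HIMF replicate 1.

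Between HBF and LBF, 79 of the pathway genes were tested and limma called 0. An unadjusted p under 0.05 was found for 14, or 17.7%, against 13.6% of all genes tested. Of these 11 were higher and 3 lower in HBF, and over all genes 1520 and 686. The smallest adjusted p was 0.233, for GNAI2, with 65.5, 61.5 and 57.5 FPKM in the LBF libraries and 104, 86.5 and 84.5 in the HBF libraries. PRKAR2B had 110, 108 and 117 FPKM in the LBF libraries and 65.1, 100.1 and 88.5 in the HBF libraries (log2 difference -0.43, adjusted p = 0.363 from limma). PPP1CA did not overlap between the groups and had a difference of 0.46 (adjusted p = 0.264 from limma). The median log2 difference was 0.16 for the pathway genes and 0.09 for all genes, with members on both sides of 0. The CREB family and cAMP-induced genes had a median of 0.92, with 7 of 8 positive against 60.4% of all genes. NR4A1, NR4A2 and NR4A3, nuclear receptors induced by cAMP, were above LBF in every HBF library, with differences of 1.32, 0.94 and 2.17 (adjusted p = 0.334, 0.292 and 0.337 from limma). Every HBF library was above every LBF library for 13.9% of all genes.

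Between HIMF and LIMF, 78 pathway genes were tested and limma again called 0, with 12 at an unadjusted p under 0.05, or 15.4% against 7.03% of all genes. Of these 10 were higher and 2 lower in HIMF, and over all genes 644 and 360. The smallest adjusted p was 0.475. All 5 glycogen enzymes had a positive difference, with a median of 0.63, as did 54% of all genes. Of these PYGM (0.31, standard error 0.40) and GYS1 (0.17, standard error 0.34) overlapped between the groups. PHKA1 had 170.4, 89.9 and 96.8 FPKM in the LIMF libraries and 203, 215 and 226 in the HIMF libraries, and PHKB differed by 0.63 (adjusted p = 0.594 and 0.650 from limma). PDE4C had 10.5, 9.20 and 29.9 FPKM in the LIMF libraries and 34.0, 60.4 and 45.3 in the HIMF libraries. For PDE4C, as for ARPP21, LIMF replicate 3 was the highest of its group.

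The genes most like PPP1R1A over the 12 libraries, by Pearson's r of log2(FPKM + 0.1) among 9843 named genes with a mean FPKM above 1, were TXLNB, CORO6, SMTNL2, MACROD1 and RBFOX1, with r from 0.987 to 0.981. For ARPP21 they were UQCR11, KY, SUCLG1, ALPK2 and CORO6, with r from 0.985 to 0.981. The members had r of 0.955 with each other. These values are set by the contrast of the tissues, and 709 and 583 genes had r above 0.9.

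After the mean of each tissue was taken off, the likeness was to other genes. For PPP1R1A the 5 highest were FASN, WDR17, COL4A5, TKT and FN3K, with r from 0.904 to 0.856. FASN, fatty acid synthase, is a fat gene, with 980.3, 333 and 581 FPKM in the LBF libraries, 65.1, 51.0 and 134 in the HBF libraries and 1.07 to 1.85 in muscle. TKT, transketolase of the pentose phosphate pathway, had 380.4, 344 and 314 FPKM in the LBF libraries and 153, 181 and 209 in the HBF libraries.

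For ARPP21 the 5 highest after the tissue means were RBL2, BCAT2, KLHDC3, RBBP7 and ATP5IF1, with r from 0.942 to 0.910, and the members had r of 0.529 with each other. KLHDC3 was at 138 FPKM in LIMF replicate 3 and at 48.1 to 81.4 in the other muscle libraries, and ATP5IF1, an inhibitor of mitochondrial ATP synthase, at 889.6 and 249 to 605. These r values share the 12 libraries and the difference between HBF and LBF on which the 2 genes were chosen, and LIMF replicate 3 carries weight in those of ARPP21. They are descriptions over 12 points.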

How the data were processed

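RNA of back subcutaneous fat and LD muscle was measured in 12 libraries, 3 per group. The authors trimmed with fastp, mapped to Sscrofa11.1 by HISAT2, and deposited the FPKM of every Ensembl gene from Cufflinks 2.2.1, as the labels and the study's methods state. Their own tests used DESeq2 1.25.9 on counts, which were not used here. FPKM hides the number of reads, so no counting error or detection floor is given, and the number of libraries limits the precision.

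The table's 31910 rows were reduced to 31903 genes by summing 7 identifiers listed on 2 rows. Symbols were given to 15027 identifiers (47.1%), and 141 of the 163 symbols in the gene lists were matched. Positions come from RefSeq on the same build, by symbol. No sequence was used here.

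Differences were fitted with limma 3.58.1 in R 4.3.3 (lmFit, eBayes with trend) on the log2(FPKM + 0.1) scale. Genes entered a fit where their mean FPKM over its libraries exceeded 0.05. Fits were made within each tissue or, for muscle against fat, over all 12 libraries with 4 group means. Benjamini-Hochberg adjustment ran over all genes tested. A gene was called where its adjusted p was below 0.01 and its log2 difference was 1 or more in either direction. On simulated data with normal noise, 125 of 200 genes with an added log2 shift of 2 were called in the comparison of HBF with LBF. The counts were 113 of 200 for HIMF with LIMF and 183 of 200 for muscle with fat. The shifted genes were drawn only from those with a positive mean on the log2 scale. These rates therefore do not cover a gene as low as ARPP21 in fat.

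The genes and gene lists were chosen with earlier results of these data known. Genes named are PPP1R1A, ARPP21, their relatives, ADRB1, ADRB3, the 3 pathway genes per list with the highest mean FPKM, any pathway gene called within a tissue, and the 5 most alike genes. PDE1B, PRKAR2A, PDE3B, PDE8B, marker genes and genes named as members of a count were added after values were seen. Results for some genes of these lists are not reported here. The alternatives tried were pseudocounts of 1 and 0.01, no filter, a filter at 1 FPKM, quantile normalization, median-of-ratios scaling, eBayes without trend, all libraries in 1 fit, the replicate number as a block, and each library left out.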

Additional observations from a re-analysis of the deposited data

How the results depend on the processing

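The directions for PPP1R1A and ARPP21 held under every alternative listed in the processing, except that ARPP21 in fat had no value with a filter at 1 FPKM. With a pseudocount of 1 the ARPP21 difference between HBF and LBF was -0.32 and that between muscle and fat 3.02, and with 0.01 they were -2.57 and 5.97. For PPP1R1A, muscle minus fat was 5.32 after quantile normalization and 5.90 after median-of-ratios scaling. Leaving out single libraries gave -1.81 to -1.54 for PPP1R1A and -1.65 to -1.26 for ARPP21 between HBF and LBF, 0.07 to 0.43 and 0.10 to 1.65 between HIMF and LIMF, and 4.77 to 4.95 and 4.59 to 5.37 between muscle and fat. The pathway genes called between muscle and fat then numbered 58 to 61, and with a pseudocount of 1 they numbered 55. Within a tissue 0 were called under every alternative. Among single genes, muscle minus fat turned to 0.17 for PRKAR1A, 0.52 for AKAP8, 0.23 for PPP1R11 and 0.49 for CALM2 with median-of-ratios scaling, and to 0.25 for AKAP8 with quantile normalization. For SIK1, at 0.05, leaving out a library gave -0.34 to 0.37. The cause of these changes was not tested.

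In groups of equal size, the replicate number as a block cannot change a fitted difference, only its error. The differences of PPP1R1A thus stayed at -1.70, 0.26 and 4.87 and those of ARPP21 at -1.46, 0.69 and 5.07. With this block the pathway genes called between muscle and fat were 61 against 60. No label states that same-numbered libraries share an origin, and they were not treated as pairs. Their deviations from the group means correlated at 0.034 to 0.138 between LBF and HBF, -0.058 to 0.011 between LIMF and HIMF, 0.048 to 0.169 between LBF and LIMF and -0.073 to -0.053 between HBF and HIMF. The deposited column codes carry matching numbers between LBF and LIMF and between HBF and HIMF. Whether these mark the same pig is not stated, and the fit of muscle against fat took all libraries as independent.

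The limits are the 3 libraries per group, the unknown number of reads behind each value, the ARPP21 level in fat near the added 0.1, the muscle RNA in LBF replicate 3 and the single high ARPP21 value in LIMF replicate 3.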
